A study of Homo sapiens with 2 samples.

Results

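The cells described here carried a single gRNA against CHEK1, the checkpoint kinase 1 gene, and were compared with cells that carried a single non-targeting gRNA. A gRNA was called in a cell when more than 3 of its unique molecular identifiers (UMIs) were counted there, and only cells with exactly 1 called gRNA were kept. This gave 173 CHEK1 cells and 696 non-targeting cells, out of 3189 cells with exactly 1 called gRNA and 5744 cells in all. Both groups were taken from the same pool of A549-TetOn-Cas9, a line derived from a lung adenocarcinoma that makes Cas9 under doxycycline. Lentivirus for 120 gRNAs was given at 0.3 infectious particles per cell, puromycin was applied for 10 to 14 days, and Cas9 was then induced for 2 days before 5 further days of growth. Control and CHEK1 cells therefore shared the line, the inducible Cas9, the virus backbone, the selection and the induction, and differed in the gRNA. The pool was read as 1 droplet run with a transcriptome library (3' CROP-seq) and a gRNA enrichment library.

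CHEK1 encodes a serine/threonine kinase of the replication checkpoint. The kinase ATR, bound to exposed single-stranded DNA through ATRIP, is switched on by TOPBP1 or ETAA1 and phosphorylates CHEK1 with the help of claspin (CLSPN) and the RAD9A-RAD1-HUS1 clamp. CHEK1 then holds back CDC25 phosphatases and cyclin-dependent kinases, which limits origin firing, protects replication forks and delays mitosis, and most dividing cells depend on it.

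The cells were spread unevenly over the 4 CHEK1 gRNAs. CHEK1_gRNA3 was found in 124 cells, the second most of all 120 gRNAs, CHEK1_gRNA2 in 34, CHEK1_gRNA4 in 11 and CHEK1_gRNA1 in 4. By number of cells CHEK1 ranked 5 among the 25 target genes, whose groups held 20 to 190 cells with a median of 86. Abundance of the gRNAs in the virus pool was not analysed here, so these numbers do not show loss or gain of cells. CHEK1_gRNA1 was left out as a replicate because it had fewer than 10 cells, which left 3 CHEK1 gRNAs and 15 non-targeting gRNAs with 13 to 134 cells each. CHEK1_gRNA3 alone supplied 76.9% of the UMIs of the 3 gRNAs. The gRNAs served as replicates of a group, but all their cells shared 1 culture and 1 library, so p-values measure the spread between gRNA groups of this pool only.

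By UMI count few CHEK1 cells lay right at the call threshold. The counts do not show whether a called gRNA was intact, and gRNA mutations were not analysed here. According to the paper, part of the cells of this experiment that Cell Ranger gave a single intact gRNA carried a mutant one. Median gRNA counts were 50 UMIs for CHEK1_gRNA2, 41.5 for CHEK1_gRNA3 and 25 for CHEK1_gRNA4. At a stricter threshold of more than 10 gRNA UMIs, CHEK1_gRNA4 fell under 10 cells, which left 2 CHEK1 gRNAs. Just inside the threshold, at 4 UMIs, lay 1 cell of CHEK1_gRNA3, and just outside it, at 3 UMIs, lay 6 cells with CHEK1_gRNA3 and 1 with CHEK1_gRNA2. A second called gRNA removed 13 of 137 cells called for CHEK1_gRNA3, 2 of 36 for CHEK1_gRNA2 and 5 of 16 for CHEK1_gRNA4. Feature names placed the 4 sites on chromosome 11, with gRNA2, gRNA3 and gRNA4 starting 2.473, 10.682 and 17.022 kb after gRNA1 and gRNA3 on the minus strand. The names give no build and the positions lie outside CHEK1 as annotated in GRCh38 (chr11:125625163-125676255, plus strand, GENCODE 44), so the exons cut were not assigned here.

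The CHEK1 cells carried epithelial keratins and had depths within the range of the controls. All of them (100%) held UMIs of the epithelial keratins KRT8 and KRT18, while the lung differentiation genes SFTPB, SFTPC, SFTPA1 and SCGB1A1 had none there and NKX2-1 had 2 UMIs. Of the fibroblast markers COL1A2 and DCN were at 0 UMIs in the CHEK1 cells, COL1A1 had 28 UMIs in 10.4% of them, LUM 9, and COL3A1 and PDGFRB 1 each. Endothelial PECAM1, VWF, CDH5, CLDN5 and EMCN were at 0 and KDR at 1. Of the blood markers PTPRC, CD3E and HBB were at 0, LYZ had 1 UMI and CD79A 4, whereas CD68, a lysosomal protein that many cell types make, was at 47.3 counts per 1000000 UMIs (CPM) in CHEK1 cells and 40.3 CPM in non-targeting cells. The median was 31764.5 UMIs per cell for CHEK1_gRNA2, 38242 for CHEK1_gRNA3 and 29402 for CHEK1_gRNA4, and the 15 non-targeting gRNAs ran from 25129 through a median of 34037 to 40842. All 3 CHEK1 values lay inside that range, and the mean log2 difference of -0.03 was smaller than the spread between gRNAs (two-sided exact permutation test over gRNAs, p = 0.794).

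The CHEK1 transcript itself was measured with few UMIs. Its level was at the low end of the control range or below it with CHEK1_gRNA2 and CHEK1_gRNA4. With CHEK1_gRNA3, which held 124 of the 173 CHEK1 cells, it was near the control median. It stood at 16.5 CPM with CHEK1_gRNA2 (19 UMIs), at 21.3 CPM with CHEK1_gRNA3 (109 UMIs) and at 15.9 CPM with CHEK1_gRNA4 (6 UMIs). The 15 non-targeting gRNAs had a lowest level of 16.5 CPM, a median of 22.9 CPM and a highest level of 34.3 CPM. CHEK1_gRNA4 lay below all of them, CHEK1_gRNA2 was level with the lowest, and CHEK1_gRNA3 lay above 7 of the 15, so the groups overlapped. The 4 cells of CHEK1_gRNA1 held 2 CHEK1 UMIs, or 19.1 CPM with an exact 95% Poisson interval of 2.31 to 68.8 CPM. Such intervals cover counting error only, and for CHEK1_gRNA4 the interval ran from 5.82 to 34.5 CPM, wider than the whole control range.

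**Figure D1:**
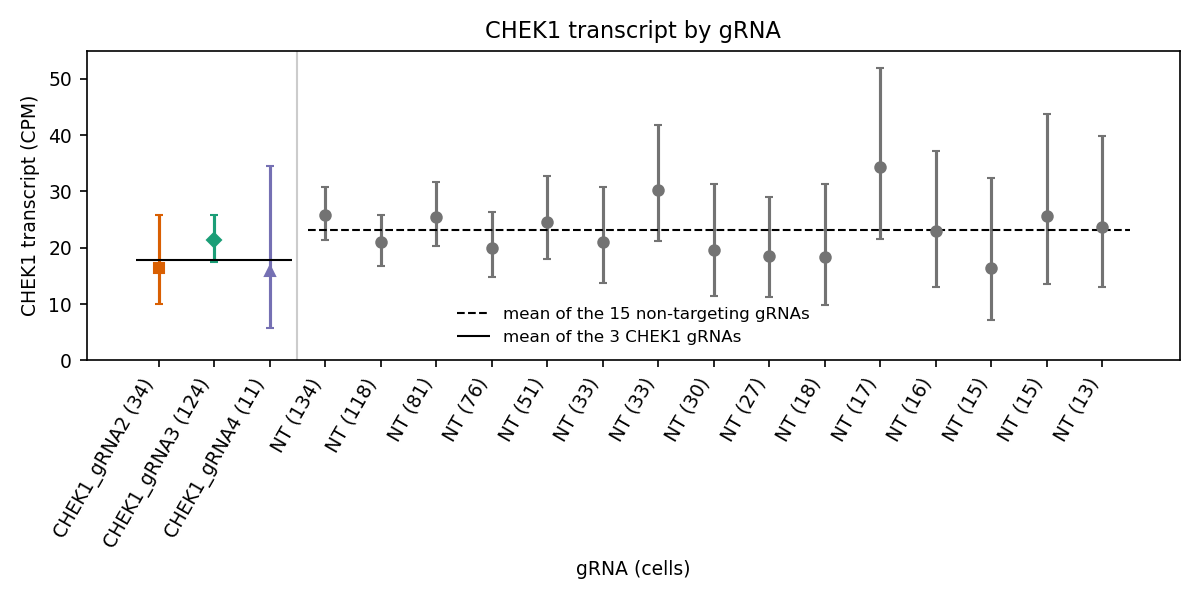
CHEK1 transcript level in CPM (vertical axis, from 0) for each gRNA with at least 10 cells, with the number of cells in brackets. Points are pooled UMIs of a gRNA, bars are exact 95% Poisson intervals, and lines are group means. The 3 CHEK1 gRNAs sit at 15.9 to 21.3 CPM and overlap the 15 non-targeting gRNAs (NT) at 16.5 to 34.3 CPM.

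Across gRNAs the mean was 17.9 ± 3.01 CPM (SD, n = 3) for CHEK1 and 23.2 ± 4.74 CPM (SD, n = 15) for non-targeting gRNAs. On the scale of log2(CPM + 1) the difference was -0.34 with p = 0.0466 in the two-sided exact permutation test over 816 splits. After Benjamini-Hochberg adjustment over the 3 permutation tests made (CHEK1 level, CHEK1 relative to replication genes, and UMIs per cell) the p was 0.140, and with 10 CPM added in place of 1 the unadjusted exact p was 0.0515. The edgeR quasi-likelihood fit, which weights gRNAs by their UMIs, gave a log2 difference of -0.24 ± 0.16 (SE) with a 95% interval of -0.57 to 0.08 and an adjusted p of 0.9997. Without CHEK1_gRNA3 the fitted difference was -0.49, again with an adjusted p (0.883) above the threshold. In pooled cells CHEK1 was at 20.2 CPM (16.9 to 23.9) against 23.0 CPM (21.2 to 25.0), or 87.6% of control, and 48.6% of CHEK1 cells and 47.8% of non-targeting cells held a CHEK1 UMI. Editing of the gene and the level of the protein were not measured in these counts.

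CHEK1 is a gene of the S and G2 phases, so its level was also set against the DNA replication genes of the same gRNA. There were 10.2 CHEK1 UMIs per 1000 UMIs of replication genes with CHEK1_gRNA2, 10.9 with CHEK1_gRNA3 and 11.7 with CHEK1_gRNA4, and 7.94 to 14.96 (median 12.6) with the non-targeting gRNAs. On this scale, chosen after the data were seen, all 3 CHEK1 gRNAs lay within the control range, with a log2 difference of -0.14 (exact permutation p = 0.346, adjusted p = 0.518). Among 26 groups of cells, 25 targets and the controls, the CHEK1 group ranked 9 from the lowest for CHEK1 level. Lower pooled values were found with gRNAs against 8 other genes, down to 12.9 CPM (7.03 to 21.6) in 35 cells with DNMT3B gRNAs, and the highest was 28.3 CPM (21.4 to 36.8) with ATAD2 gRNAs.

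Across the transcriptome no gene passed. Of 8781 genes tested, edgeR called 0 higher (0%) and 0 lower (0%) in CHEK1 cells at an adjusted p under 0.05, and 283 (3.22%) had an unadjusted p under 0.05. DESeq2 on the same sums called 1 gene higher (0.0114%), EPHX1, and 0 lower (0%), and had 155 genes at an unadjusted p under 0.05. The median log2 difference over all tested genes was -0.01, and 98.3% of them lay within 0.5 of 0. For 8528 genes (97.1%) the 95% interval lay within -1 to 1, so that a change of 2-fold or more lay outside it, and the interval typically reached 0.34 to either side of the estimate (median). A log2 difference beyond 1 was found for 4 genes, SPINK6 (1.90, 95% interval 0.18 to 3.62), CES1 (1.14, 0.21 to 2.08), TSGA10 (-1.10, -1.85 to -0.34) and SUSD2 (-1.003, -1.83 to -0.18), of which all but TSGA10 were named after their values were seen.

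**Figure D2:**
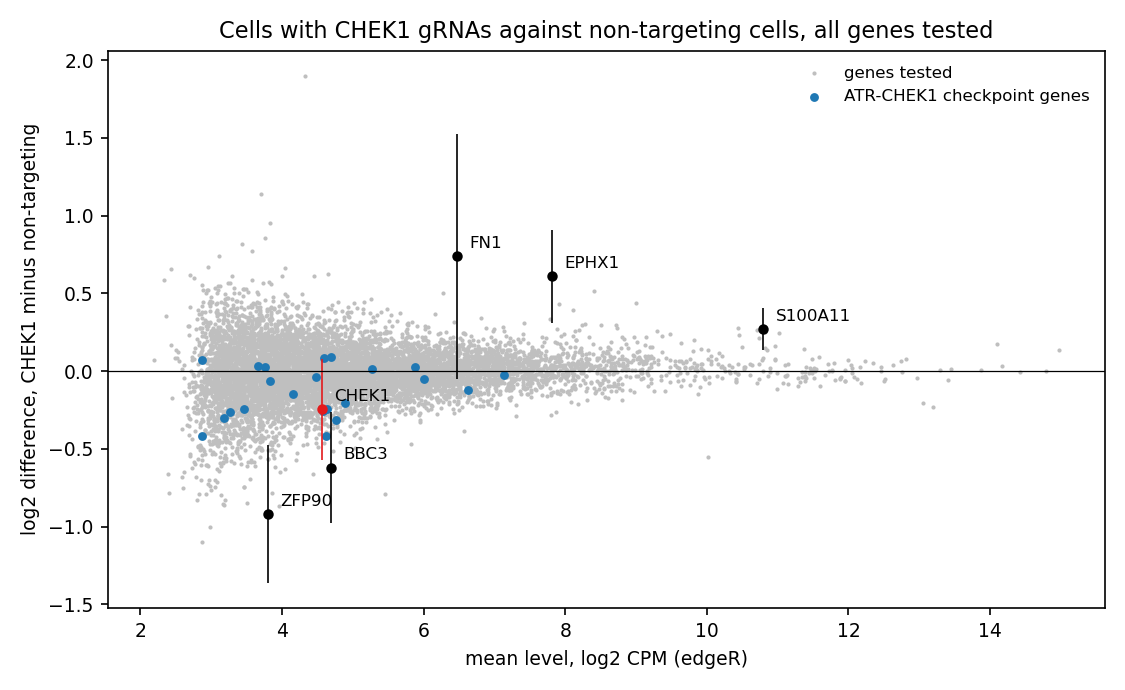
Log2 difference between CHEK1 and non-targeting gRNAs (vertical axis) against mean level in log2 CPM (horizontal axis) for all 8781 genes tested with edgeR. Black and red points with bars give log2 differences and 95% intervals of 6 named genes, and blue points are genes of the ATR-CHEK1 list. Most genes lie within 0.5 of 0, EPHX1 and S100A11 lie above and ZFP90 and BBC3 below the bulk of genes of their level, and none passed the adjusted threshold.

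The genes with the smallest p on the higher side were led by S100A11 and EPHX1, and neither passed in the edgeR fit. EPHX1, the microsomal epoxide hydrolase of xenobiotic metabolism, was at 307 CPM with CHEK1_gRNA2, at 229 CPM with CHEK1_gRNA3 and at 478 CPM with CHEK1_gRNA4, and at 173 to 231 CPM (median 207) with the non-targeting gRNAs. CHEK1_gRNA2 and CHEK1_gRNA4 lay above every non-targeting gRNA and CHEK1_gRNA3 lay within their range. The fitted log2 difference of EPHX1 was 0.61 ± 0.14 (SE), with a 95% interval of 0.31 to 0.91 and an adjusted p of 0.9997 in edgeR. Without CHEK1_gRNA3, which leaves gRNAs with 34 and 11 cells, edgeR called EPHX1 higher (log2 difference 0.90, adjusted p = 1.85e-05) and without CHEK1_gRNA4 it did not (0.33, adjusted p = 0.9999). DESeq2 called it with all 3 gRNAs (0.67, adjusted p = 0.028). Call rules and cell minimums that left CHEK1_gRNA4 out gave 0.32 to 0.34. In single cells the median EPHX1 level was 248 CPM with CHEK1_gRNA2, 175 CPM with CHEK1_gRNA3 and 430 CPM with CHEK1_gRNA4, beside 169 CPM in non-targeting cells. One of the 11 cells of CHEK1_gRNA4 held 27.1% of its EPHX1 UMIs, and without that cell the gRNA was at 395 CPM.

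S100A11, a calcium-binding protein of the S100 family, was at 2332 CPM with CHEK1_gRNA2, 1790 CPM with CHEK1_gRNA3 and 2061 CPM with CHEK1_gRNA4. The non-targeting gRNAs ran from 1515 through 1697 to 1917 CPM, so again CHEK1_gRNA2 and CHEK1_gRNA4 lay above the range and CHEK1_gRNA3 inside it. Its log2 difference was 0.27 (95% interval 0.13 to 0.41), and without CHEK1_gRNA3 it was 0.39 with an adjusted p of 0.0288 in edgeR, whereas without CHEK1_gRNA2 it was 0.18 with an adjusted p of 0.9999. EPHX1 and S100A11 were the 2 genes called without CHEK1_gRNA3. The other genes with the smallest p on this side were PKP4 (plakophilin 4, log2 difference 0.61), ANXA8L1 (an annexin, 0.82), CPNE7 (a copine, 0.44), IDH3B (a subunit of mitochondrial isocitrate dehydrogenase, 0.32), LINC01137 (0.77), CALM2 (calmodulin, 0.24), ASXL2 (a Polycomb-associated protein, 0.49) and C11orf58 (0.22). ANXA8L1 has close paralogs among the annexins, and how reads shared with them were counted was not checked.

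The genes with the smallest p on the lower side were led by ZFP90, a KRAB zinc finger repressor. Its level was 7.81 CPM with CHEK1_gRNA2, 7.64 CPM with CHEK1_gRNA3 and 5.29 CPM with CHEK1_gRNA4, and 8.24 CPM at the lowest, 14.0 CPM at the median and 25.6 CPM at the highest non-targeting gRNA. All 3 CHEK1 gRNAs thus lay below all 15 controls, with 51 UMIs in all CHEK1 cells. The log2 difference was -0.92 ± 0.22 (SE; 95% interval -1.36 to -0.48), and the adjusted p in edgeR was 0.9997. BBC3, which encodes the pro-apoptotic protein PUMA, was at 16.5, 18.02 and 13.2 CPM with CHEK1_gRNA2, CHEK1_gRNA3 and CHEK1_gRNA4. Its controls ran from 15.9 to 35.8 CPM (median 28.4), and the log2 difference was -0.62 (95% interval -0.98 to -0.26).

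AARS, the alanyl-tRNA synthetase, was at 31.2, 47.8 and 37.0 CPM with the same 3 gRNAs and at 43.2 to 80.3 CPM (median 59.6) in the controls, a log2 difference of -0.47. PDCD4, an inhibitor of translation initiation, was at 15.6, 14.3 and 7.93 CPM against 11.9 to 45.3 CPM (median 23.2), a log2 difference of -0.66. Both therefore overlapped the control range. The remaining genes on this side were at 0 to 28.2 CPM in each CHEK1 gRNA. They were TMEM135 (-0.86), the calcium channel subunit CACNG6 (-0.85), the zinc finger protein REPIN1 (-0.50), the nucleoporin NDC1 (-0.75), TSGA10 (-1.10) and the transcription factor TCF4 (-0.86). With CHEK1_gRNA4 a single UMI equals 2.64 CPM, so its values for such genes rest on 0 to 3 UMIs.

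**Figure D3:**
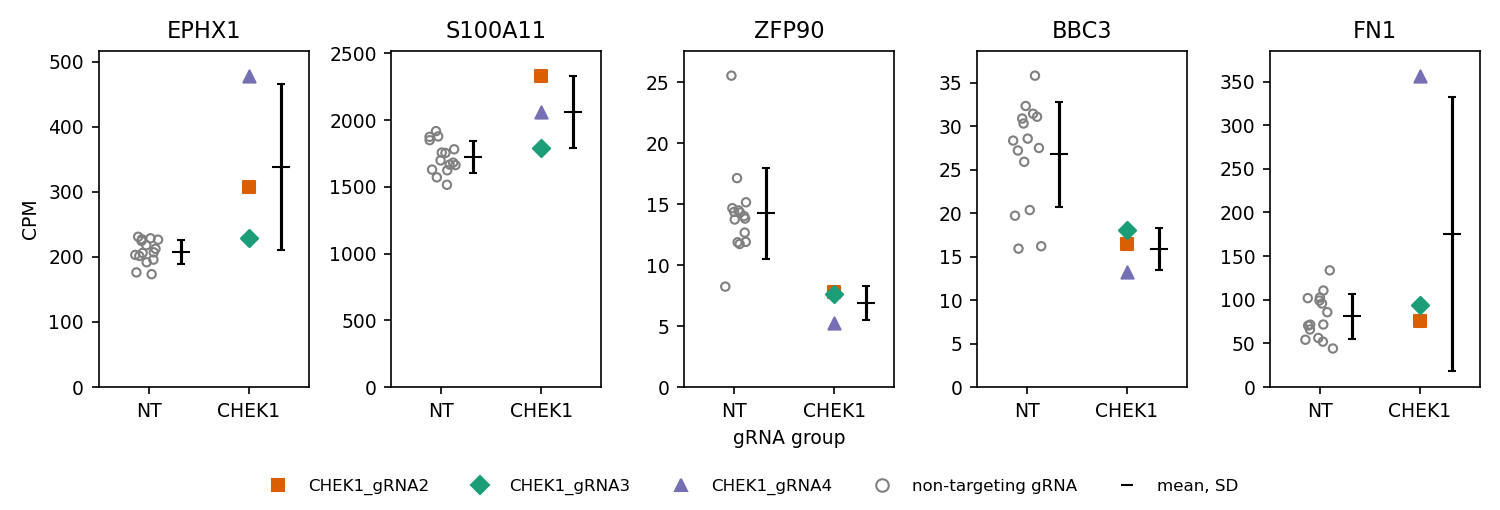
CPM (vertical axes, each from 0) of EPHX1, S100A11, ZFP90, BBC3 and FN1 by gRNA. Open circles are the 15 non-targeting gRNAs (NT), coloured symbols the 3 CHEK1 gRNAs, and bars mean and SD of each group. EPHX1 and S100A11 lie above the controls with CHEK1_gRNA2 and CHEK1_gRNA4, FN1 with CHEK1_gRNA4 alone, and ZFP90 lies below all controls with all 3 gRNAs.

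Few genes separated the groups completely. All 3 CHEK1 gRNAs lay above all 15 non-targeting gRNAs for 5 of 8781 genes (0.0569%) and below all of them for 5 genes (0.0569%). The higher genes were L3HYPDH, TSR2, SRRD, ACTR8 and SGTB, with log2 differences of 0.35 to 0.48. The lower genes were ZFP90, TMEM135, the interferon-induced ligase HERC5 (-0.65), the kinetochore protein SKA3 (-0.52) and the splicing factor SREK1 (-0.34). Apart from ZFP90, TMEM135 and HERC5, these genes were named after their values were seen. None had an adjusted p under 0.05 in edgeR.

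Genes of the ATR-CHEK1 checkpoint pathway did not pass in either direction. Of 24 genes listed, 22 had enough UMIs, 0 were called higher and 0 lower by edgeR, 1 had an unadjusted p under 0.05, and 20 had 95% intervals within -1 to 1. Their median log2 difference was -0.09 beside -0.01 over all tested genes, with 15 members below 0 and 7 above. The sensor kinase ATR was at 13.0 CPM with CHEK1_gRNA2, 8.03 CPM with CHEK1_gRNA3 and 2.64 CPM with CHEK1_gRNA4, against 6.91 to 15.7 CPM (median 10.8) in the controls. Its log2 difference was -0.24 (95% interval -0.71 to 0.22), and that of its partner ATRIP was -0.41 (-1.06 to 0.23).

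Of the activators of ATR, TOPBP1 was at 19.9, 21.9 and 13.2 CPM with CHEK1_gRNA2, CHEK1_gRNA3 and CHEK1_gRNA4 and at 15.3 to 30.98 CPM (median 23.5) in the controls, a log2 difference of -0.24, and ETAA1 had one of -0.07. The clamp subunits RAD9A (-0.14), RAD1 (-0.26) and HUS1 (0.03) and the clamp loader RAD17 (0.02) all had intervals that included 0. Claspin, the adaptor that brings CHEK1 to ATR, was at 28.6, 44.1 and 23.8 CPM beside 28.8 to 61.8 CPM (median 35.2), with a log2 difference of 0.01 (-0.29 to 0.32). CHEK1_gRNA3 was above the control median of CLSPN and the other two gRNAs were below its lowest control. TIMELESS and TIPIN, which form the fork protection complex, had log2 differences of -0.20 and 0.09.

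On the side of the CHEK1 targets, WEE1, the kinase that inhibits CDK1, had the lowest log2 difference of the list, -0.42 ± 0.19 (SE; 95% interval -0.80 to -0.03), with an adjusted p of 0.9997 in edgeR. Its level was 9.54 CPM with CHEK1_gRNA2, 21.2 CPM with CHEK1_gRNA3 and 23.8 CPM with CHEK1_gRNA4, and 13.6 to 35.2 CPM (median 26.8) in the controls, so only CHEK1_gRNA2 lay outside their range. PKMYT1, the related inhibitory kinase, had a log2 difference of 0.08. The phosphatases CDC25B and CDC25C had -0.12 and 0.07, and CDC25A had too few UMIs to be tested. CDK1 was at 57.2, 66.2 and 29.1 CPM against 39.6 to 92.2 CPM (median 51.5), a log2 difference of 0.03, and CDK2 had one of -0.30. Among the cyclins, CCNA2 had -0.31 (-0.69 to 0.06), CCNB1 -0.02 and CCNE1 -0.04. The phosphatases that switch the pathway off, PPM1D and PPP2CA, had -0.26 and -0.05.

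Summed over the list, CHEK1_gRNA2 (582 CPM) and CHEK1_gRNA4 (587 CPM) lay below all 15 non-targeting gRNAs (608 to 867 CPM, median 696) and CHEK1_gRNA3 (707 CPM) above 9 of them. The sums for the ATM-CHEK2 pathway and double-strand break repair were likewise below all controls for CHEK1_gRNA2 and CHEK1_gRNA4 and not for CHEK1_gRNA3, with 1003 CPM, 986 CPM and 1202 CPM for CHEK1_gRNA2, CHEK1_gRNA4 and CHEK1_gRNA3 against 1004 to 1445 CPM (median 1118). Among single genes of all kinds, 144 (1.64%) had both CHEK1_gRNA2 and CHEK1_gRNA4 below all controls, and 91 (1.04%) had both above. In the ATR-CHEK1 list 1 of 22 tested genes, CLSPN, did so on the low side. Of the DNA replication genes 5 of 42 did (MCM7, POLE, RFC1, LIG1 and TK1), of the G2 and mitosis genes 3 of 50 (MKI67, HJURP and CDCA2), and of every other list at most 1, and apart from CLSPN and TK1 these were chosen with their values in view. The difference between CHEK1_gRNA3 and the other two gRNAs was not tested.

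**Figure D4:**
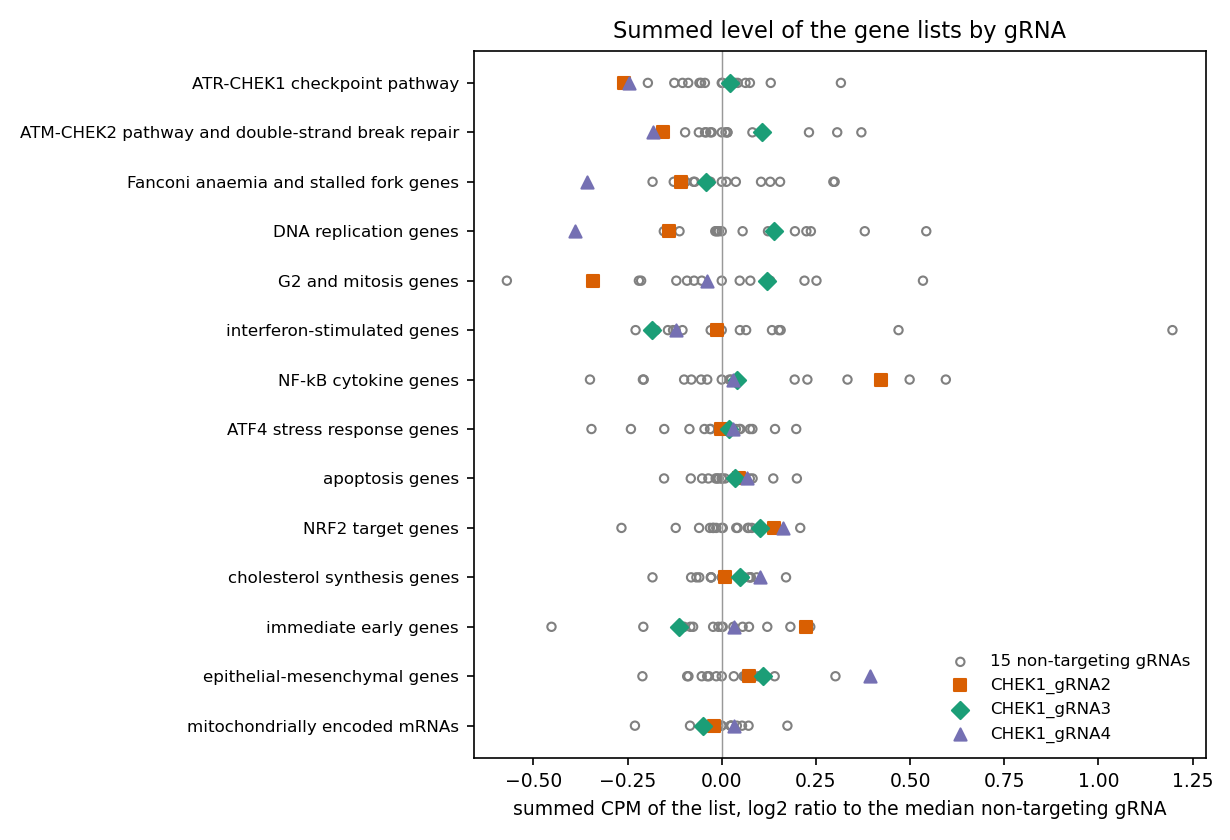
Summed CPM of each gene list by gRNA, as log2 ratio to the median non-targeting gRNA (horizontal axis), for 14 lists with more than 1 tested member. Open circles are the 15 non-targeting gRNAs and coloured symbols the 3 CHEK1 gRNAs. CHEK1_gRNA2 and CHEK1_gRNA4 lie left of all controls for the ATR-CHEK1 and ATM-CHEK2 lists, and CHEK1_gRNA3 lies among the controls in all lists shown.

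The other DNA damage lists also held no called gene (edgeR, 0 higher and 0 lower in each, with 0 or 1 gene of a list at an unadjusted p under 0.05). In the ATM-CHEK2 and double-strand break list, 23 genes were tested, 17 lay below 0 and the median log2 difference was -0.08. Its most abundant members were XRCC5 (0.04) and XRCC6 (0.04), which form the Ku end-binding complex, PRKDC (-0.05), the kinase that Ku recruits, and H2AFX (-0.14), the histone marked at breaks. Of 15 tested Fanconi anaemia and stalled fork genes 11 lay below 0, with a median of -0.06. FANCI was at -0.25, ERCC4 at 0.13, HLTF at -0.01 and RAD18 at 0.00.

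DNA replication genes lay mostly slightly below 0 without any call. Of 42 tested members 35 were below 0, as were 4546 of all 8781 genes tested, the median log2 difference was -0.08, and the lowest and highest were -0.35 and 0.43. The median was -0.27 without CHEK1_gRNA3 and -0.031 without CHEK1_gRNA2. The replication clamp PCNA was at 169 CPM with CHEK1_gRNA2, 166 CPM with CHEK1_gRNA3 and 100 CPM with CHEK1_gRNA4, and at 107 to 216 CPM (median 149) in the controls, a log2 difference of 0.02 (95% interval -0.23 to 0.26). Thymidine kinase TK1 was at 111, 160 and 95.1 CPM against 122 to 204 CPM (median 150), a log2 difference of -0.18, and thymidylate synthase TYMS (-0.14) and the single-strand binding subunit RPA3 (-0.04) were closer to 0. Summed, the list held 1612, 1955 and 1356 CPM with CHEK1_gRNA2, CHEK1_gRNA3 and CHEK1_gRNA4 against 1596 to 2587 CPM (median 1776), so that CHEK1_gRNA4 lay below all controls and CHEK1_gRNA3 above 10 of 15.

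Genes of G2 and mitosis showed the same small offset, with 41 of 50 tested members below 0, a median of -0.08 and 0 calls in edgeR. Without CHEK1_gRNA3 the median was -0.29, and without CHEK1_gRNA2 it was -0.0032. All 50 had a 95% interval within -1 to 1. Topoisomerase TOP2A was at 146 CPM with CHEK1_gRNA2, 257 CPM with CHEK1_gRNA3 and 267 CPM with CHEK1_gRNA4 and at 187 to 367 CPM (median 230) in the controls, with a log2 difference of -0.14 (-0.53 to 0.24). CKS1B and CKS2, which bind cyclin-dependent kinases, had -0.02 and -0.06, and the tubulin TUBB4B 0.10. The list sums were 3030, 4170 and 3734 CPM for CHEK1_gRNA2, CHEK1_gRNA3 and CHEK1_gRNA4, all inside the control range of 2586 to 5560 CPM.

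The apoptosis genes had a median log2 difference of -0.01 over 15 tested members, of which 6 lay above 0 and 9 below, and edgeR called 0 of them, with 1 (BBC3) at an unadjusted p under 0.05. The most abundant members included BAD, which promotes cell death, BCL2L1, which opposes it, and cytochrome c (CYCS), with BAD at 0.10, BCL2L1 at 0.16 and CYCS at 0.16.

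Lists further from CHEK1 also held 0 genes called by edgeR, with 0 to 2 genes of each at an unadjusted p under 0.05. Of the interferon-stimulated genes 12 of 32 were tested, with a median of -0.16 and 9 below 0. Among these HERC5 had -0.65 and an unadjusted p under 0.05. ISG15 was at 38.2, 25.7 and 42.3 CPM with CHEK1_gRNA2, CHEK1_gRNA3 and CHEK1_gRNA4 and at 20.1 to 148 CPM (median 34.7) in the controls, and its 95% interval was -1.65 to 0.79. IFI35 had -0.06.

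NRF2 targets, which A549 expresses at a high level because its inhibitor KEAP1 is mutated, stood on the higher side without passing. Of 22 tested targets 19 lay above 0, the median log2 difference was 0.14 and 2, the aldo-keto reductases AKR1C3 (0.26) and AKR1B1 (0.28), named after their values were seen, had an unadjusted p under 0.05. The list sums were 67615, 65897 and 68724 CPM with CHEK1_gRNA2, CHEK1_gRNA3 and CHEK1_gRNA4, each above 14 of the 15 non-targeting gRNAs (51089 to 70986 CPM, median 61441). The ferritin genes FTL and FTH1 made up most of this sum, with log2 differences of 0.14 (95% interval -0.03 to 0.30) and 0.17 (-0.02 to 0.37). Without them the sums of 13414, 13401 and 14381 CPM lay above 13, 13 and 15 of the 15 controls. The related enzyme, AKR1B10, was at 2024, 1920 and 2299 CPM against 1327 to 2309 CPM (median 1751), a log2 difference of 0.25 (-0.01 to 0.52), and the transketolase TKT had 0.07.

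**Figure D5:**
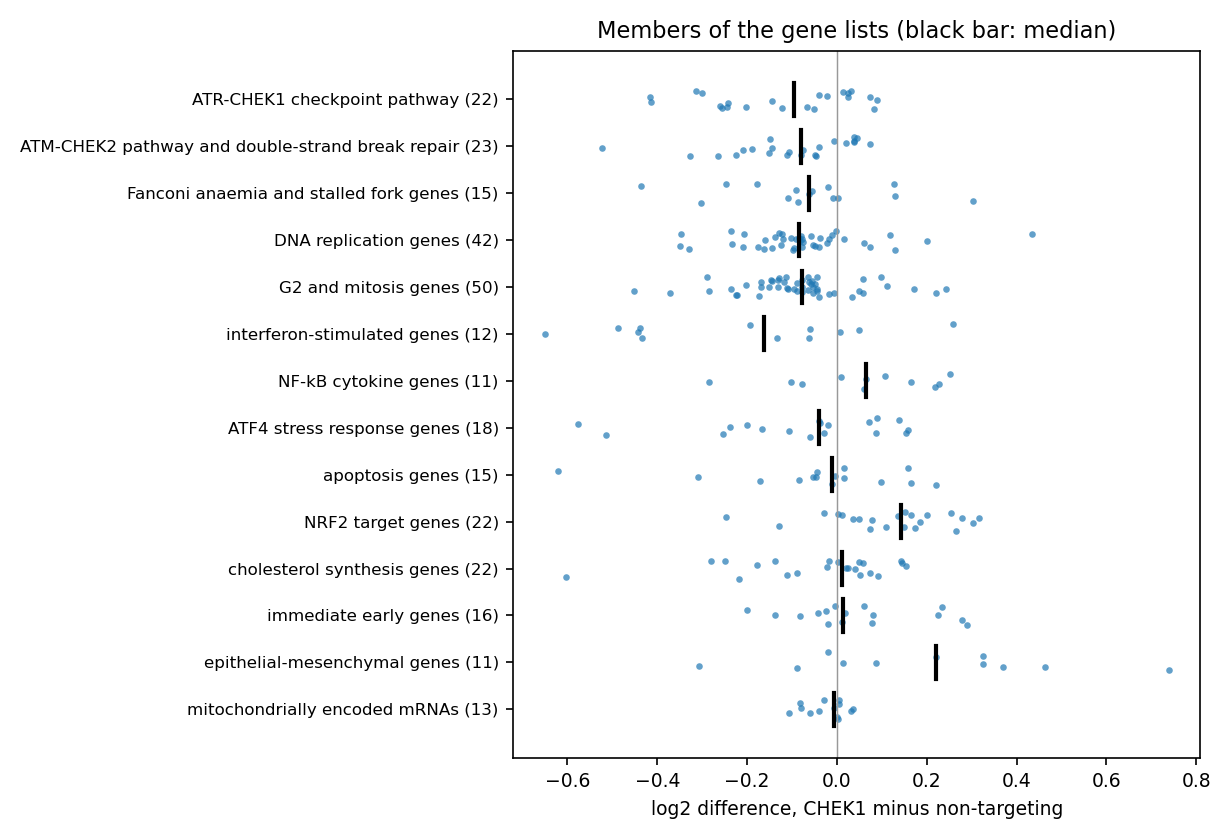
Log2 difference between CHEK1 and non-targeting gRNAs (horizontal axis) for each tested member of 14 gene lists, with the number of tested members in brackets and the list median as a black bar. Medians lie between -0.16 and 0.22, beside -0.01 over all tested genes, and no member passed the adjusted threshold.

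The median furthest from 0 among lists with more than 1 tested gene was that of the epithelial-mesenchymal genes, 0.22 over 11 tested members, of which 8 lay above 0. Without CHEK1_gRNA4 it was 0.011. The list mixes epithelial genes such as CDH1 and EPCAM with mesenchymal ones, so its median gives no direction between these states. Fibronectin (FN1) was at 75.5 CPM with CHEK1_gRNA2, at 93.6 CPM with CHEK1_gRNA3 and at 357 CPM with CHEK1_gRNA4, against 44.1 to 134 CPM (median 71.6) in the controls. One cell held 32.6% of the FN1 UMIs of CHEK1_gRNA4, and without it the gRNA was at 293 CPM. The fitted log2 difference of FN1 was 0.74 (95% interval -0.05 to 1.53). TGFBI (0.22) and vimentin (VIM, 0.09) also had intervals that included 0.

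Of the remaining lists, NF-kB cytokine genes had a median of 0.07 (11 tested), with NFKBIA at -0.08, CXCL5 at 0.07, CXCL2 at 0.01 and CXCL3 at 0.16. ATF4 stress response genes had -0.04 (18 tested), with SLC3A2 at 0.09, SLC7A5 at -0.06, DDIT4 at 0.14 and ATF4 at -0.04. Cholesterol synthesis genes had 0.01 (22 tested), with FDPS at 0.02, EBP at 0.05, SQLE at 0.09 and FDFT1 at 0.06. Immediate early genes had 0.01 (16 tested), with IER3 at 0.02, DUSP1 at -0.04, JUND at 0.00 and IER2 at 0.08. The 13 mitochondrially encoded mRNAs, which often mark stressed cells when raised, had -0.01, and MT-CO1, MT-CO2, MT-CO3 and MT-ATP6 lay between -0.01 and 0.03. Of 20 germline and cancer-testis genes only MAGEA6 could be tested, at -0.62 with an interval of -2.05 to 0.81.

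Genes next to CHEK1 on 11q were looked at because Cas9 cuts can affect more of a chromosome than the target. In GENCODE 44 on GRCh38, where 8769 of the 8781 tested genes had a position, the nearest tested genes on the centromeric side were STT3A, EI24 and TMEM218, with log2 differences of -0.05, 0.01 and -0.22. On the telomeric side HYLS1, RPUSD4 and FAM118B had -0.10, 0.15 and 0.11, and all 6 intervals included 0. STT3A (chr11:125591712-125625215, plus strand) ends inside the first bases of CHEK1, and how reads of this overlap were counted was not checked. The 11 tested genes within 5 Mb on the centromeric side had a median of -0.09, with 9 below 0, 0 called and 1 at an unadjusted p under 0.05 (NRGN, -0.59, named after its value was seen), and the 11 on the telomeric side had -0.08, with 7 below 0 and 0 at an unadjusted p under 0.05, and the 15 from CHEK1 to the end of the arm had -0.08. All 534 tested genes of chromosome 11 besides CHEK1, these neighbours included, had a median of -0.01, and 0 of them were called (edgeR, 16 had an unadjusted p under 0.05).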

How the data were processed

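The deposited matrix holds raw UMI counts per gene and gRNA, not normalized, from the transcriptome and gRNA enrichment libraries of 1 pool, and per the labels Cell Ranger 3.1.0 and GRCh38 were used to build it. All 5744 barcodes were kept, and doublets were removed only as cells with 2 or more called gRNAs (286 cells). UMIs were summed per gRNA and scaled to CPM. gRNAs with at least 10 cells (3 CHEK1, 15 non-targeting, 378412 to 5106223 UMIs each) entered edgeR 4.0.16 (TMM, filterByExpr, robust quasi-likelihood test, Benjamini-Hochberg over all genes tested, called under 0.05). SE and 95% intervals came from the F statistic. Permutation tests over gRNAs were exact and two-sided (SciPy 1.17.1). The procedure was tested on simulated data with known changes. There edgeR called 10.2% of genes changed 1.25-fold, 42% at 1.5-fold, 82% at 2-fold and 98% at 4-fold. The members, gene lists and tests were chosen with earlier results of these data known. Named were CHEK1, the 10 genes with the smallest p in each direction, all tested ATR-CHEK1 genes, the 4 most abundant tested members of every other list (1 list and some single genes are not reported here), any called gene and the 3 nearest tested genes on each side of CHEK1. Alternatives were other gRNA thresholds, a mixture model for gRNA calls, cell minimums, left-out gRNAs, library sizes alone, no filter and DESeq2 1.42.0. Spacer sequences and indels were not analysed here. Python 3.11.15, NumPy 2.4.6, pandas 2.3.3, scikit-learn 1.9.0 (mixture model), matplotlib 3.10.9 and R 4.3.3 were used.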

Additional observations from a re-analysis of the deposited data

How the results depend on the processing

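No gene was called higher or lower under most of the 14 other settings run. The exceptions on the higher side were DESeq2 with 1 gene (EPHX1) and leaving out CHEK1_gRNA3 with 2 genes (EPHX1 and S100A11), so that leaving out one CHEK1 gRNA at a time gave 0 to 2 higher and 0 lower genes. Genes at an unadjusted p under 0.05 numbered 283, and 513 without CHEK1_gRNA3, 155 with DESeq2, 701 among all 20092 genes with at least 1 UMI and 175 with every gRNA of at least 1 cell, an alternative chosen after seeing the data. No member of a gene list was called under any setting.

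The fitted log2 difference of CHEK1 stayed below 0 and did not pass under any setting. Its exact permutation test, at a log2 difference of -0.34 and p = 0.0466, missed 0.05 with more than 10 gRNA UMIs (-0.28, p = 0.162), a gRNA holding 80% of the gRNA UMIs (-0.26, p = 0.221), cells of at least 10000 UMIs (-0.34, p = 0.0515), at least 5 cells (-0.31, p = 0.0991) or 20 cells per gRNA (-0.26, p = 0.218), no non-targeting gRNA with the most cells (-0.33, p = 0.0559), 10 CPM added (-0.24, p = 0.0515) and relative to replication genes, a scale chosen after seeing the data (-0.14, p = 0.346). With the mixture model for gRNA calls the exact permutation p stayed under 0.05 (-0.35, p = 0.0441). Leaving out one CHEK1 gRNA at a time gave -0.47 to -0.27, with an exact permutation p of 0.0147 without CHEK1_gRNA3 and above 0.05 without either of the others. Without CHEK1_gRNA3 no control lay below either remaining CHEK1 gRNA, so that p was the smallest this test could give. Of these gRNAs, CHEK1_gRNA4 held 6 CHEK1 UMIs. With every gRNA of at least 1 cell, 4 CHEK1 and 20 non-targeting gRNAs entered. The log2 difference of CHEK1 then turned to 0.035 (exact permutation p = 0.701). CHEK1 stood at 19.1 CPM with the added CHEK1_gRNA1 (4 cells). With the added non-targeting gRNAs, of 1 to 8 cells each, it stood at 0, 5.35, 13.5, 15.3 and 37.1 CPM. The difference in UMIs per cell turned to 0.096 with at least 20 cells per gRNA (exact p = 0.545) and ran from -0.14 to 0.054 without one CHEK1 gRNA. The cause of these shifts was not tested.

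Thresholds of more than 10 UMIs, 80% of the gRNA UMIs and 20 cells each left 2 CHEK1 gRNAs. Of 104 named genes beside CHEK1, 53 kept their sign under all settings in which they were tested and 2 passed under any. List medians kept their sign under all 14 settings for the ATR-CHEK1, ATM-CHEK2, Fanconi anaemia, replication, mitosis, interferon, ATF4 and NRF2 lists, although those of the replication and mitosis genes ran from -0.27 to -0.0077 and from -0.29 to -0.0032, and changed sign under at least 1 setting for the NF-kB, apoptosis, cholesterol, immediate early, epithelial-mesenchymal and mitochondrial lists. No paired analysis was possible because the labels give the 2 groups no shared replicate numbers and all cells came from 1 pool. Depth limits the scarce genes most: CHEK1 itself rests on 136 UMIs, 109 of them with CHEK1_gRNA3, and CHEK1_gRNA4 has 11 cells.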
